A study of Caenorhabditis elegans with 12 samples.

Results

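The vitellogenin genes vit-2, vit-3, vit-4, vit-5 and vit-6 and the yolk receptor gene rme-2 were followed in whole L4 larvae of Caenorhabditis elegans, by matching these 6 symbols in the deposited gene tables. All 6 were found among 21882 genes, and all 6 were among the 15728 genes that passed the filter on low counts. RNA-Seq was done on 12 samples, 4 of each of 3 strains. The neuronal rescue strain carried the deletion raga-1(ok386) and the extrachromosomal array wbmEx238, in which the pan-neuronal rab-3 promoter drives raga-1 cDNA followed by SL2::mCherry. The mutant strain carried raga-1(ok386) without the array, and N2 was the wild type. raga-1 encodes the worm RagA GTPase, an activator of the growth kinase complex TORC1. The rescue was a single array line, and the study states that neuronal promoters can leak into the intestine, where vitellogenins are made. In its lifespan tests, the array still suppressed longevity after RNAi had removed its intestinal expression. The study also reports that raga-1 mutants developed late, which a single-copy neuronal raga-1 transgene did not correct. Worms for RNA-Seq were harvested at mid-L4. All worms ate HT115 bacteria carrying the empty vector L4440. About 1000 worms from an independent egg lay made up each sample. Rescue worms were picked under a fluorescence microscope onto a new plate before collection, while mutant and wild type worms were washed straight off their plates, so that handling cannot be told apart from the array.

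Vitellogenins are yolk lipoproteins. The intestine of the C. elegans hermaphrodite makes them in large amounts once the animal becomes an adult, secretes them into the body cavity, and growing oocytes take them up through RME-2, a receptor of the LDL receptor family. Transcription of vit genes starts around the passage from the last larval stage to adulthood, when the hypodermis also switches to adult collagens. vit-2, vit-3, vit-4 and vit-5 encode large yolk polypeptides, and vit-6 encodes a precursor that is cut into smaller ones.

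In the WBcel235 assembly, with gene models of an Ensembl release later than the authors' release 94, vit-2 (WBGene00006926) lies on chromosome X from 5101042 to 5106169 on the plus strand. vit-3 (WBGene00006927, 3567355 to 3572549) and vit-4 (WBGene00006928, 3558769 to 3563965) are neighbours on the minus strand of chromosome X. vit-5 (WBGene00006929) lies on the plus strand of X from 3403471 to 3408603. vit-6 (WBGene00006930, 8261157 to 8266459) and rme-2 (WBGene00004374, 5470026 to 5473174) are both on the plus strand of chromosome IV. All 6 are annotated as protein coding, and the values below count reads over their whole transcripts. vit-3, vit-4 and vit-5 are closely related copies, so the division of reads among them by the estimation program is less certain than their sum.

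Total estimated counts per sample lay between 24724610 and 31410363 in rescue, between 20320091 and 35619305 in mutant and between 14287510 and 26701924 in wild type. Levels are given as CPM (the count of a gene scaled to a common library total) with edgeR's TMM factors, and a floor of 3 counts corresponds to 0.0842 to 0.21 CPM. No members were near this floor. raga-1 itself had 891, 805, 874 and 857 CPM in rescue samples 1 to 4, and 1.42, 1.76, 1.49 and 1.55 CPM in mutant samples, against 70.2, 61.8, 66.9 and 66.1 CPM in wild type samples. By its raga-1 level, every library matched the strain on its label, which does not check its replicate number or collection day. The wild type libraries stood apart as pairs: across 15728 genes, replicate 1 lay closest to replicate 3 and replicate 2 closest to replicate 4. Replicates are numbered by the labels, which also give collection days. Mutant and rescue samples 1 to 4 were collected on days 1, 2, 4 and 6, and wild type samples 1 to 4 on days 2, 4, 6 and 8.

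vit-6 was the most abundant member and reached first place among all genes by count in its highest sample. vit-6 had 8553, 11789, 8299 and 6889 CPM in rescue samples 1 to 4. It had 13749, 10584, 7883 and 8776 CPM in mutant samples, against 3033, 10901, 3835 and 9908 CPM in wild type samples. Wild type replicates 1 and 3 were below every mutant and rescue sample, and wild type replicates 2 and 4 lay inside the range of both, so the groups overlapped. Mutant against wild type, the log2 fold change of vit-6 was 0.57 (SE 0.37), with an adjusted p of 0.282 by edgeR's quasi-likelihood test. Rescue against wild type it was 0.36 (adjusted p 0.475), and rescue against mutant it was -0.21 (adjusted p 0.812, same test).

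vit-2 encodes a large yolk polypeptide and followed vit-6 closely. It had 6302, 8802, 5776 and 4865 CPM in rescue samples 1 to 4. The mutant samples had 10336, 8238, 5412 and 6128 CPM, against 2518, 9507, 3331 and 8187 CPM in the wild type samples. Wild type replicates 1 and 3 were again the lowest of the 12 samples, and wild type replicates 2 and 4 lay among the mutant and rescue values. The log2 fold change was 0.36 (SE 0.39, edgeR adjusted p 0.527) in mutant against wild type and 0.13 (adjusted p 0.818) in rescue against wild type. It was -0.23 (edgeR adjusted p 0.8) in rescue against mutant.

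vit-5 had 2813, 4400, 2362 and 1824 CPM in rescue samples 1 to 4. It had 4711, 3837, 1974 and 2483 CPM in mutant samples, against 890.7, 3387, 909.8 and 3276 CPM in wild type samples. Wild type replicates 1 and 3 were below every other sample, and wild type replicates 2 and 4 were again within the range of mutant and rescue. The log2 fold change of vit-5 was the largest among the members in mutant against wild type, at 0.62 (SE 0.47), and its edgeR adjusted p was 0.354. It was 0.43 (adjusted p 0.502) in rescue against wild type and -0.19 (adjusted p 0.865) in rescue against mutant.

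vit-3 and vit-4 are the neighbouring copies. vit-3 had 1562, 2281, 1249 and 1129 CPM in rescue, and 1851, 1512, 893.1 and 1083 CPM in mutant samples, against 1076, 2022, 971.5 and 2538 CPM in wild type samples. Here the wild type replicates 1 and 3 were no longer below all others: mutant replicate 3 was the lowest of the 12 samples, and wild type replicate 4 was the highest. The log2 fold change of vit-3 was -0.31 (SE 0.34, edgeR adjusted p 0.53) in mutant against wild type and -0.09 (adjusted p 0.861) in rescue against wild type. In rescue against mutant it was 0.22 (edgeR adjusted p 0.772).

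vit-4 had 906.7, 1566, 706.1 and 539.5 CPM in rescue, and 1346, 941.1, 424.2 and 565.2 CPM in mutant samples, against 643.5, 1468, 497.9 and 1660 CPM in wild type samples. As for vit-3, mutant replicate 3 was the lowest and wild type replicate 4 the highest sample, and all 3 groups overlapped. Its log2 fold change was -0.38 (SE 0.47, edgeR adjusted p 0.577) in mutant against wild type, -0.2 (adjusted p 0.763) in rescue against wild type and 0.18 (adjusted p 0.869) in rescue against mutant. With vit-3, vit-4 and vit-5 summed into 1 feature, the log2 fold change was 0.16 (SE 0.42, edgeR adjusted p 0.804) in mutant against wild type, 0.14 (adjusted p 0.815) in rescue against wild type and -0.02 (adjusted p 0.988) in rescue against mutant.

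rme-2, the oocyte receptor, was expressed far below the vitellogenins. It had 152.2, 226.7, 180.4 and 179.7 CPM in rescue samples 1 to 4, and 249.9, 215.8, 182.3 and 212.9 CPM in mutant samples, against 87.7, 223.4, 139.1 and 196.7 CPM in wild type samples. Wild type replicates 1 and 3 were the lowest of the 12 samples, and mutant replicate 1 was the highest. The log2 fold change was 0.41 (SE 0.24, edgeR adjusted p 0.215) in mutant against wild type, 0.19 (adjusted p 0.553) in rescue against wild type and -0.22 (adjusted p 0.659) in rescue against mutant.

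**Figure D1:**
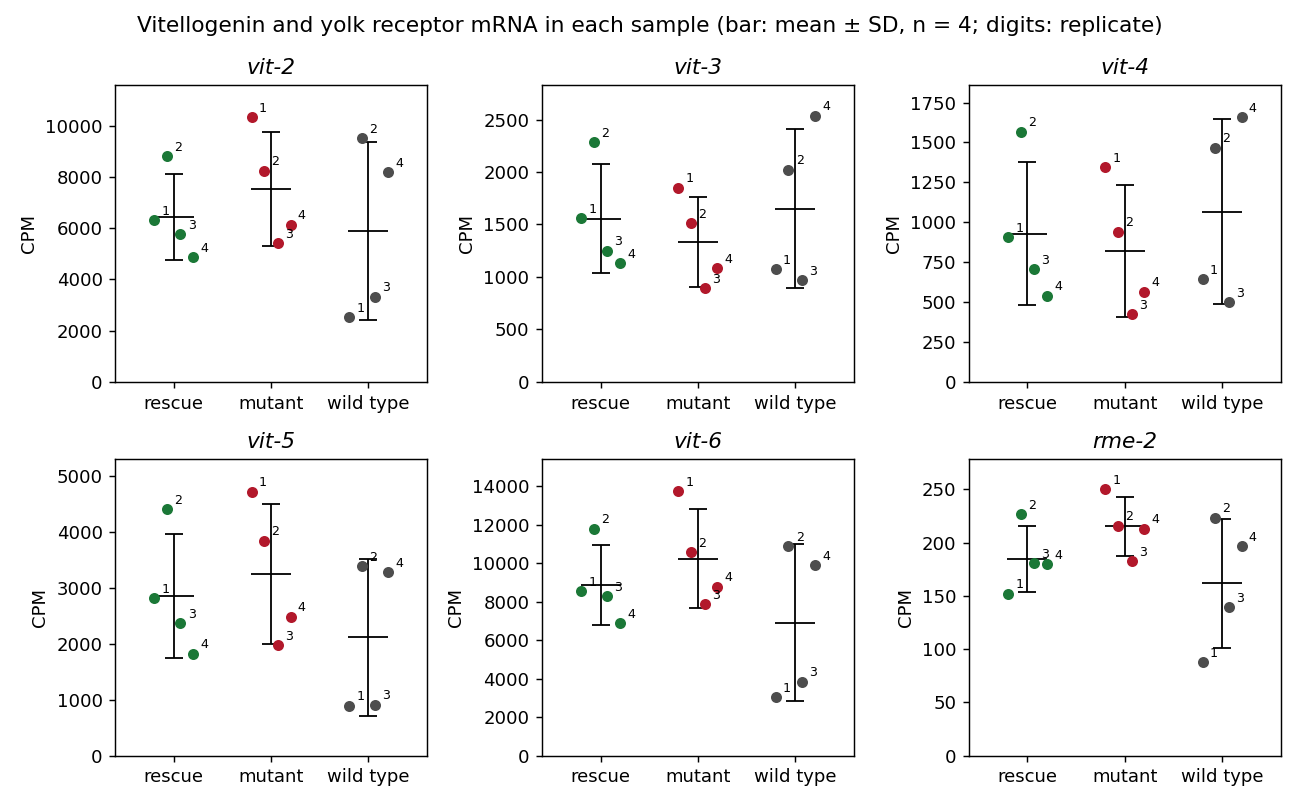
CPM (y axis, from 0) of each member in the 4 rescue, 4 mutant and 4 wild type samples; dots are samples labelled by replicate, bars show mean ± SD. In vit-2, vit-5, vit-6 and rme-2 wild type replicates 1 and 3 sit below the samples of the other groups, and wild type replicates 2 and 4 sit among them.

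Group means with their SD show the same overlap. vit-6 averaged 8883 ± 2072 CPM in rescue and 10250 ± 2591 CPM in mutant, against 6919 ± 4058 CPM in wild type (SD, n = 4 each). vit-2 averaged 6436 ± 1685 CPM in rescue and 7528 ± 2223 CPM in mutant, against 5886 ± 3477 CPM in wild type. rme-2 averaged 184.8 ± 30.9 CPM in rescue and 215.2 ± 27.7 CPM in mutant, against 161.7 ± 60.6 CPM in wild type. Each difference was smaller than the SD of the wild type group. Bulk RNA cannot tell fewer expressing cells from less RNA per cell.

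Counted over the members, 0 of 6 passed the threshold of an adjusted p under 0.01 in any comparison. The share of all tested genes that passed was 15.4% in mutant against wild type and 23.7% in rescue against wild type. It was 0.381% in rescue against mutant, or 0.216% with the replicate number as a block, and 21.1% when all 3 groups were tested jointly. By direction, 6.36% of all genes were called higher and 9.01% lower in mutant against wild type, 10.2% higher and 13.5% lower in rescue against wild type, and 0.305% higher and 0.0763% lower in rescue against mutant. The edgeR count of members at an unadjusted p under 0.05 was also 0 of 6 in each comparison, as was the count with DESeq2 and with limma. Without wild type replicate 2, it was 2 of 6 in mutant against wild type, and 0 of 6 passed the adjusted threshold. Of all genes, 40.7%, 47.7% and 17.1% had such a p in mutant against wild type, rescue against wild type and rescue against mutant. The groups of 4 overlapped for all 6 members in all 3 pairwise comparisons, while 29%, 34.4% and 17.7% of all genes did not overlap in the same comparisons. The median log2 fold change of the members was 0.38 in mutant against wild type and 0.16 in rescue against wild type, beside 0.003 and 0.04 for all tested genes. It was -0.20 in rescue against mutant, beside -0.002 for all tested genes.

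These estimates were imprecise, and a p above the threshold does not show that the strains had equal yolk mRNA. For vit-5 in mutant against wild type, the log2 fold change with 2 standard errors each way ran from -0.33 to 1.56. For vit-6 it ran from -0.18 to 1.31, and for rme-2 from -0.06 to 0.88. A 2-fold increase, which is 1 on the log2 scale, lay inside the range for vit-2, vit-5 and vit-6.

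**Figure D2:**
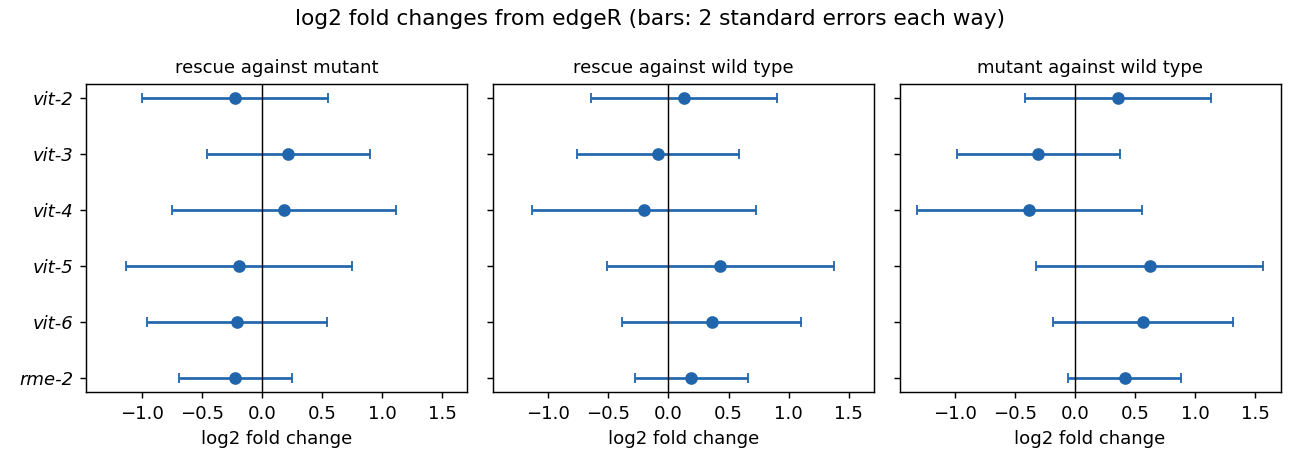
Log2 fold changes of the members (x axis) in rescue against mutant, rescue against wild type and mutant against wild type, from edgeR; bars extend 2 standard errors each way. Every bar crosses 0, including that of rme-2 in mutant against wild type, which ends at -0.06.

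Compared per length of transcript, the 5 vitellogenins differed in level by several fold, and rme-2 was lower. In CPM per kb, vit-6 averaged 1756 in rescue and 2026 in mutant, against 1368 in wild type. vit-2 came next, with 1304 in rescue and 1526 in mutant, against 1193 in wild type, and vit-6 was above vit-2 in 12 of 12 samples. In wild type the difference of their means was smaller than either SD, and in rescue it was larger than both. vit-5 had 585.1, 667.6 and 434.5 CPM per kb in rescue, mutant and wild type, and vit-3 had 315.9, 271.1 and 335.5. vit-5 was above vit-3 in 10 of 12 samples, the exceptions being wild type replicates 1 and 3. vit-4 was below vit-3 in 12 of 12 samples, at 188.3 CPM per kb in rescue and 165.9 in mutant, against 216.2 in wild type. vit-1 (WBGene00006925), a further vitellogenin gene on chromosome X from 7727889 to 7733168, was below vit-4 in 12 of 12 samples. vit-1 had 672.7, 1282, 547.3 and 385.7 CPM in rescue, and 1150, 799.4, 292.2 and 463.4 CPM in mutant samples, against 532.6, 1176, 464.6 and 1316 CPM in wild type samples. Its lowest sample was mutant replicate 3 and its highest wild type replicate 4, as for vit-3 and vit-4. rme-2 had 64.4 CPM per kb in rescue and 75.1 in mutant, against 56.4 in wild type.

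The vitellogenins varied more among replicates than most genes did. For vit-2 to vit-6 the highest wild type sample was 2.61 to 3.8 times the lowest. The same quotient was 1.74 to 3.17 among mutant samples and 1.71 to 2.9 among rescue samples. For rme-2 it was 1.49 in rescue and 1.37 in mutant, against 2.55 in wild type. The SD of log2 CPM among wild type samples was 1.09 for vit-5, 0.946 for vit-2 and 0.94 for vit-6, beside a median of 0.208 over all tested genes. Its median was 0.132 in mutant and 0.134 in rescue samples. Of all tested genes, 87.9% to 98.7% had a smaller SD than the vitellogenins, taking each gene and group in turn. For rme-2 this share was 77.5% in rescue and 66.8% in mutant, against 87% in wild type.

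Together the 5 vitellogenins made up 2.14 ± 0.57% of the estimated counts in rescue and 2.28 ± 0.605% in mutant, against 1.72 ± 1.01% in wild type (SD, n = 4 each). In CPM, their sum was 20136, 28839, 18392 and 15246 in rescue, and 31993, 25111, 16585 and 19036 in mutant, against 8162, 27285, 9545 and 25569 in wild type. Wild type replicates 1 and 3 were below every other sample, and wild type replicates 2 and 4 lay within the ranges of both rescue and mutant. The wild type samples collected on days 2 and 6 were the low ones and those collected on days 4 and 8 were the high ones. Whether collection day, stage or another property of these samples set this split was not tested.

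**Figure D3:**
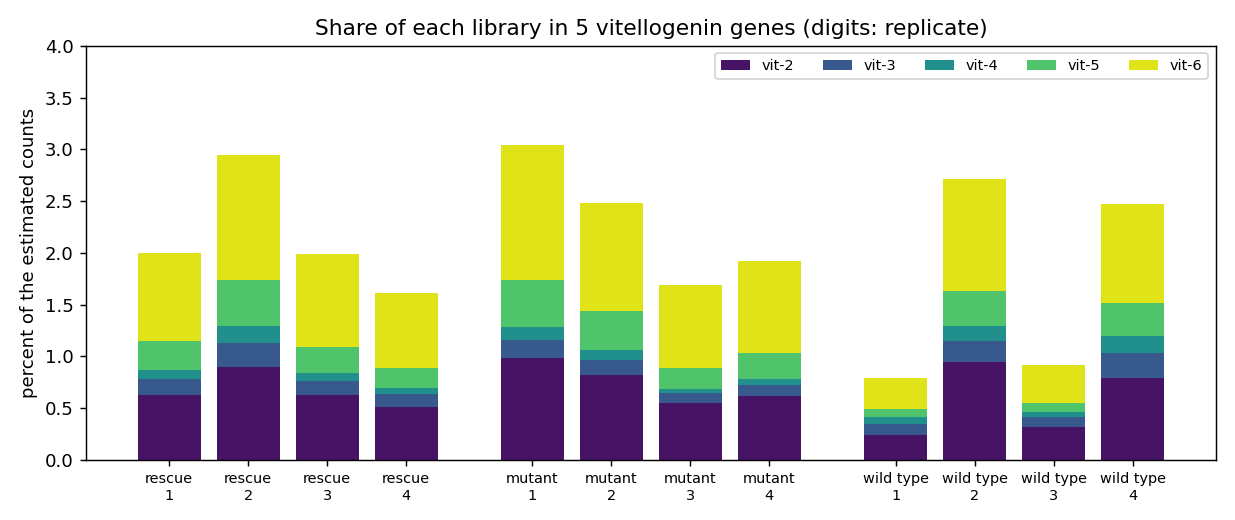
Percent of the estimated counts in each library (y axis, from 0) taken by vit-2, vit-3, vit-4, vit-5 and vit-6, stacked, for the 4 rescue, 4 mutant and 4 wild type samples. The stacks are 1.61% to 2.95% in rescue, 1.69% to 3.04% in mutant and 0.788% to 2.71% in wild type.

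Within a collection day, which compares single samples, the strains had no steady order. For vit-6, mutant against wild type, the log2 difference was 1.80 on day 2, -0.47 on day 4 and 1.19 on day 6. For vit-2 it was 1.71, -0.81 and 0.88 on these days. On day 4 the mutant was thus below wild type in vit-2, vit-3, vit-4, vit-5, vit-6 and rme-2, and on days 2 and 6 it was above in all 6. Rescue against mutant, vit-2 differed by -0.71 on day 1, 0.10 on day 2, 0.09 on day 4 and -0.33 on day 6.

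Levels of 2 members were also divided within each sample, which removes what they share. This comparison was chosen after the values were seen, and none of the ratio comparisons passed the test adjusted over all of them (adjusted p 0.099 at the lowest). vit-3 relative to vit-6 was 0.183, 0.193, 0.151 and 0.164 in rescue samples 1 to 4, and 0.135, 0.143, 0.113 and 0.123 in mutant samples, against 0.355, 0.185, 0.253 and 0.256 in wild type samples. Mutant samples lay below every wild type sample and also below every rescue sample, and rescue and wild type overlapped through wild type replicate 2. The mutant ratio was 0.501 times that of wild type, and the rescue ratio was 1.34 times that of mutant. On shared days the mutant to wild type quotient was 0.402, 0.611 and 0.487 (days 2, 4 and 6), and the rescue to mutant quotient was 1.36, 1.35, 1.33 and 1.33 (days 1, 2, 4 and 6).

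vit-4 relative to vit-6 was 0.106, 0.133, 0.0851 and 0.0783 in rescue, and 0.0979, 0.0889, 0.0538 and 0.0644 in mutant samples, against 0.212, 0.135, 0.130 and 0.168 in wild type samples. The mutant samples were all below the wild type samples, with a ratio 0.469 times that of wild type. Rescue overlapped with both groups. vit-2 relative to vit-6 was 0.737, 0.747, 0.696 and 0.706 in rescue, and 0.752, 0.778, 0.687 and 0.698 in mutant samples, against 0.830, 0.872, 0.869 and 0.826 in wild type samples. All 8 samples with the raga-1 deletion were below the 4 wild type samples, by a factor of 0.857 in mutant and 0.849 in rescue. vit-5 relative to vit-6 overlapped in all comparisons.

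Over the 15 pairs of members and 3 comparisons, 13 of 45 ratio comparisons had groups that did not overlap. Relative to vit-6, 5.84%, 4.66% and 4.25% of all other genes do not overlap in mutant against wild type, rescue against wild type and rescue against mutant. Relative to vit-5 these shares are 2.05%, 2% and 1.04%, and relative to vit-2 they are 2.48%, 2.51% and 3.06%. Without the division, 29%, 34.4% and 17.7% of all genes do not overlap. Dividing by a vitellogenin brings its wide spread among samples into every gene that does not vary with it, which lowers the shares. They therefore do not measure how unusual the member ratios are. The 45 comparisons reuse the same members and are not independent. In mutant against wild type, 7 pairs did not overlap, and each of them had vit-2 or one of vit-3 and vit-4 on one side. The exact two-sided permutation p of each of the 13 was 0.0286, the smallest that 4 against 4 samples allow, which cannot reach 0.01, and the value adjusted over the 45 comparisons was 0.099. No ratio comparison therefore passed an adjusted threshold of 0.05. Closely related copies can share reads, so the ratios that involve vit-3, vit-4 or vit-5 are uncertain. Read sharing was not examined for any vit gene, so vit-2 over vit-6 is not known to be safer. Outside the 45 comparisons, vit-1 was also divided by vit-2. The ratio was 0.0793 to 0.146 in rescue and 0.054 to 0.111 in mutant, against 0.124 to 0.212 in wild type.

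**Figure D4:**
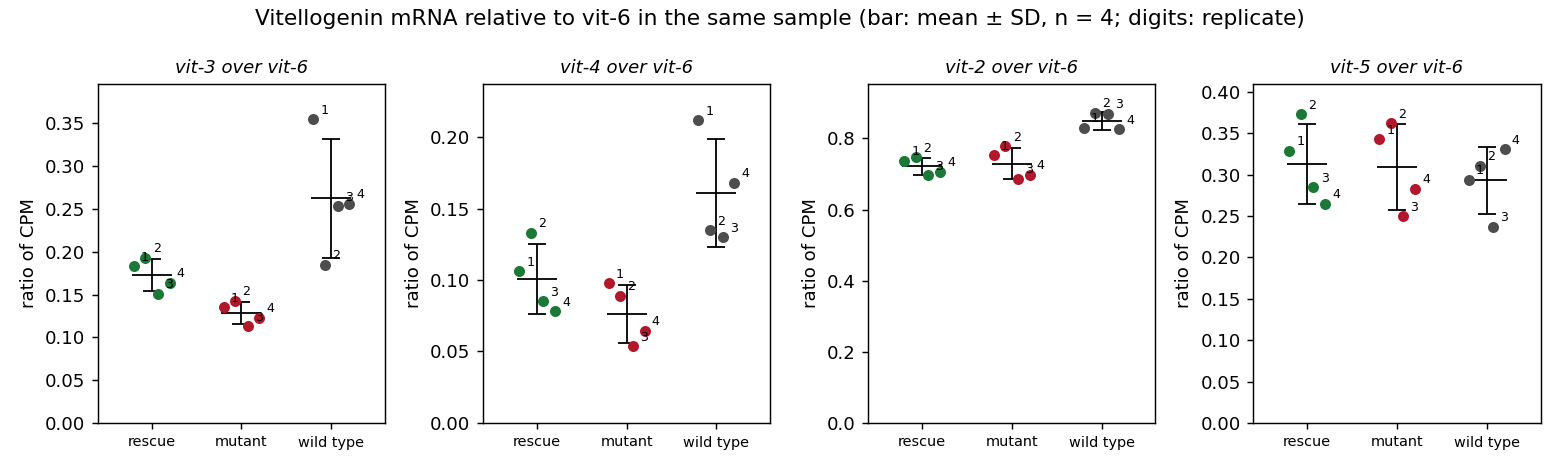
CPM of vit-3, vit-4, vit-2 and vit-5 divided by that of vit-6 in the same sample (y axis, from 0) in rescue, mutant and wild type; dots are samples labelled by replicate, bars show mean ± SD. The mutant ratios of vit-3, 0.113 to 0.143, lie below those of rescue, 0.151 to 0.193, and of wild type, 0.185 to 0.355.

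Over the 12 samples, with strain differences included, vit-2, vit-5 and vit-6 varied together across samples, with Pearson correlations of log2 CPM between 0.976 and 0.981, and vit-3 and vit-4 correlated at 0.987. Between vit-3 or vit-4 and the other vitellogenins the correlations were 0.642 to 0.761. With the mean of each group subtracted, all 5 followed the summed vitellogenins closely, with vit-3 at 0.946 and vit-4 at 0.929, compared with 0.774 and 0.757 before. The sum holds these same 5 genes, so part of each correlation with it is fixed by how it was made. The correlations describe 12 points that share strain, day and library, and no test was made of them. rme-2 followed vit-6 (0.93) more than vit-4 (0.486). Against the summed vitellogenins, rme-2 had a Pearson r of 0.897 and a Spearman rho of 0.895 over 12 samples. Without wild type replicates 1 and 3, the 2 samples farthest from the median of the sum, r was 0.744 and rho was 0.818 over 10 samples. Per 1000 CPM of vitellogenin mRNA there were 7.56 to 11.8 CPM of rme-2 in rescue and 7.81 to 11.2 in mutant, against 7.69 to 14.6 in wild type.

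The 8 genes outside the members whose log2 CPM followed the summed vitellogenins best over the 12 samples had Pearson correlations of 0.963 to 0.989. They were Y37D8A.19 (0.989), ZC373.2 (0.981), W02D9.7 (0.98), tbh-1 (0.978), col-147 (0.972), F55B11.3 (0.971), K07A1.6 (0.969) and C45B2.1 (0.963). tbh-1 encodes tyramine beta-hydroxylase, which makes octopamine, and col-147 encodes a collagen. In all, 134 of 15722 genes had a correlation above 0.9. tbh-1 averaged 41.8 ± 10.9 CPM in rescue and 44.6 ± 9.54 CPM in mutant, against 32.3 ± 16.8 CPM in wild type (SD, n = 4 each). col-147 averaged 348 ± 64.5 CPM in rescue and 406 ± 180 CPM in mutant, against 285 ± 180 CPM in wild type.

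Genes of the adult cuticle varied over the same samples, some in the order of the vitellogenins and some in the reverse order. col-19, an adult-specific collagen of the hypodermis, had 1180, 1290, 972 and 883 CPM in rescue samples 1 to 4, and 2300, 1540, 1030 and 1220 CPM in mutant samples, against 617, 1770, 878 and 1560 CPM in wild type samples. In wild type it was low in replicates 1 and 3 and high in 2 and 4, as were the vitellogenins. bli-1, a collagen of the struts of the adult cuticle, had 368, 245, 192 and 300 CPM in rescue and 87.5, 113, 142 and 62.8 CPM in mutant, against 595, 13.7, 199 and 21.5 CPM in wild type. Its wild type order was the reverse, with replicates 1 and 3 high, and bli-2 (710, 23.4, 319 and 52.1 CPM in wild type) had the same order as bli-1. Of the 4 adult cuticle genes, col-7, col-19, bli-1 and bli-2, edgeR called 0 in any pairwise comparison, as did DESeq2 and limma, with 0 at an unadjusted p under 0.05. Of all genes, edgeR called 15.4% in mutant against wild type, 23.7% in rescue against wild type and 0.381% in rescue against mutant. In the same order, 40.7%, 47.7% and 17.1% of all genes had an unadjusted p under 0.05 by edgeR. The part of stage in the vitellogenin spread was not tested.

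A list of oocyte and eggshell genes showed the same low wild type samples in its sum. Its largest term was gld-1, which averaged 558 CPM in rescue and 660 CPM in mutant, against 590 CPM in wild type. The summed CPM of 21 such genes was 3506, 4591, 3987 and 3747 in rescue samples 1, 2, 3 and 4. It was 5462, 4789, 4280 and 4624 CPM in mutant, against 2177, 4599, 3125 and 4094 CPM in wild type. In mutant against wild type 21 of 21 were above 0 in log2 fold change with a median of 0.54, and 2 were called higher (6.36% of all genes were called higher, and DESeq2 called 4 of the 21 and limma 2). The 21 genes were read in the same libraries and are not independent, so counts of their signs do not add up as separate observations. An unadjusted p under 0.05 was found for 13 of the 21, beside 40.7% of all genes. In rescue against wild type 19 of 21 were above 0, with a median of 0.25, and 1 was called higher (10.2% of all genes were). This was cav-1 (edgeR adjusted p 0.000884). By edgeR, 1 of the 21 had an unadjusted p under 0.05 in this comparison, beside 47.7% of all genes. In rescue against mutant 0 of 21 were above 0, with a median of -0.26, and 0 of 21 were called, beside 0.381% of all genes. By edgeR, 3 of the 21 had an unadjusted p under 0.05 here, beside 17.1% of all genes. mbk-2, a kinase of the oocyte-to-embryo transition, was called in mutant against wild type (log2 fold change 0.29, edgeR adjusted p 0.00413). cav-1, a caveolin, was called as well, at 1.91, 1.87, 1.01 and 1.41 CPM in mutant samples, against 0, 0.134, 0.352 and 0.233 CPM in wild type samples, which is at or near the floor of 3 counts. It had 1.47, 2.13, 1.24 and 0.843 CPM in rescue samples, so its call in rescue rests on the same wild type samples near the floor.

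**Figure D5:**
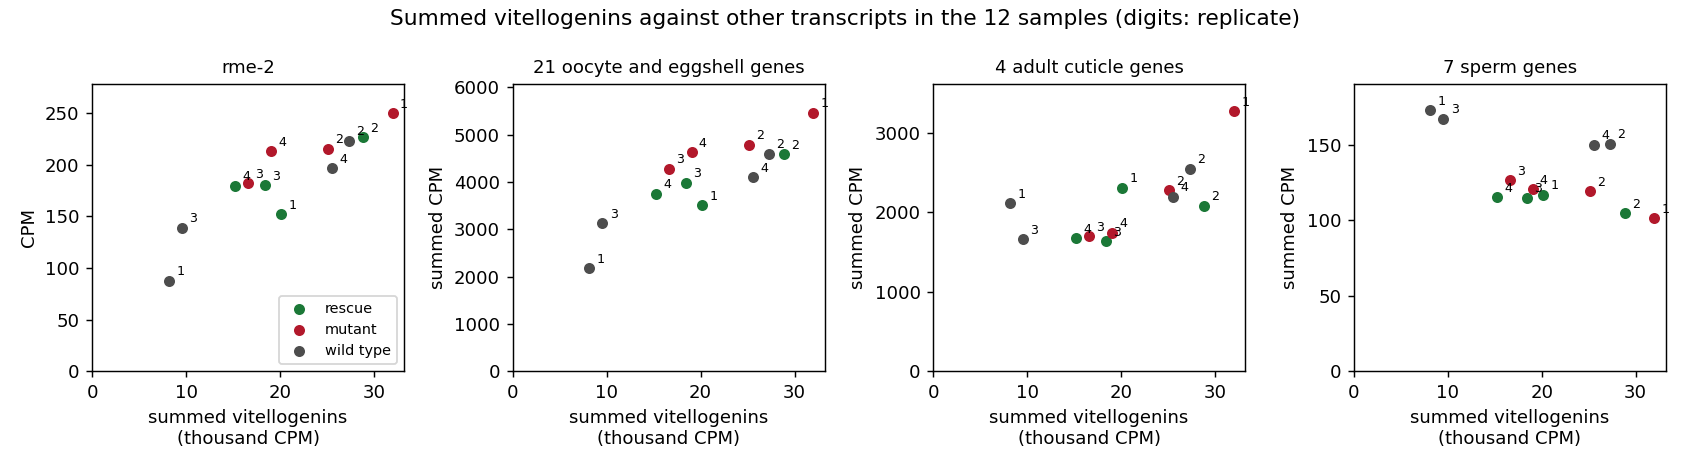
Levels of rme-2 and summed CPM of 21 oocyte and eggshell, 4 adult cuticle and 7 sperm genes (y axes, from 0) against the summed CPM of the 5 vitellogenins (x axis) in 4 rescue, 4 mutant and 4 wild type samples. Wild type replicates 1 and 3, with 8162 and 9545 CPM of vitellogenins, are also lowest in rme-2 and oocyte genes and highest in sperm genes.

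Part of the sperm and germline genes were lower in both strains with the deletion, and their wild type samples were not split as widely. The 7 sperm genes summed to 105 to 117 CPM in rescue and 101 to 126 CPM in mutant, against 150 to 173 CPM in wild type. spe-42, spe-10 and spe-26 fell in mutant against wild type, and these and spe-11 fell in rescue against wild type, which is 3 and 4 of 7 beside the 9.01% and 13.5% of all genes called lower. DESeq2 called 5 and 5 of the 7, and limma 4 and 4. These are genes of sperm formation and function in C. elegans. spe-42 had a log2 fold change of -0.64 (edgeR adjusted p 0.000946) in mutant and -0.70 (adjusted p 0.000302) in rescue against wild type. Among the 6 germline genes, glh-1, a helicase of germ granules, had 452, 445, 444 and 429 CPM in rescue and 440, 456, 464 and 473 CPM in mutant, against 803, 701, 728 and 687 CPM in wild type. Both glh-1 and pgl-1 fell in mutant, and htp-3 and him-3, which act on meiotic chromosomes, fell in addition in rescue, which is 2 and 4 of 6 beside the same shares of all genes, 9.01% and 13.5%, with the same counts by DESeq2 and limma.

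The 8 intestine markers summed to 4816 to 5599 CPM in rescue and 5061 to 5774 CPM in mutant, against 4794 to 5769 CPM in wild type. These ranges overlapped in all 3 groups. The largest term of the sums was asp-1, which averaged 2840 CPM in rescue and 2850 CPM in mutant, against 2960 CPM in wild type. Of the 8, ifb-2, an intermediate filament of the intestine, was called higher in mutant (log2 fold change 0.60, edgeR adjusted p 0.00272), with 720, 753, 675 and 748 CPM in mutant samples, against 383, 540, 419 and 567 CPM in wild type samples. It was 1 of 8, beside 6.36% of all genes called higher. In mutant against wild type 4 of 8 were above 0 in log2 fold change, with a median of -0.004. ges-1 was lower (log2 fold change -0.23, edgeR adjusted p 0.0403), which did not pass the threshold. In rescue against wild type edgeR and limma called 0 of the 8 and DESeq2 called 1, beside 23.7% of all genes called by edgeR. By edgeR, 2 of the 8 had an unadjusted p under 0.05, beside 47.7% of all genes. Among 11 genes known to act on vitellogenin transcription, 2 were called higher in mutant and in rescue against wild type, beside 6.36% and 10.2% of all genes. These were daf-2, the insulin receptor, and rict-1, a subunit of TORC2. daf-2 had 78.3, 73.2, 81.4 and 93.5 CPM in rescue and 80.4, 75.3, 75.8 and 86.6 CPM in mutant, against 63.1, 66.7, 60.9 and 61.5 CPM in wild type. For rict-1 the log2 fold change was 0.21 (edgeR adjusted p 0.00736) in mutant and 0.35 (adjusted p 0.000177) in rescue against wild type.

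Among 14 genes of lipoprotein assembly and receptor-mediated endocytosis, edgeR called 0 in mutant against wild type, where 6 had an unadjusted p under 0.05, beside 40.7% of all genes, and DESeq2 and limma each called 1. In rescue against wild type edgeR called 1 of 14 higher, beside 10.2% of all genes. This was snx-1, a sorting nexin of the retromer, with 45.8, 50.7, 42.9 and 43.1 CPM in rescue samples, against 36.8, 29.2, 34.5 and 33.9 CPM in wild type samples (log2 fold change 0.44, edgeR adjusted p 0.00116). In rescue against mutant edgeR, DESeq2 and limma called 0 of the 70 genes of these 7 lists, of which 12 had an unadjusted p under 0.05 by edgeR, beside 17.1% of all genes.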

How the data were processed

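RNA-Seq of 12 L4 samples was analysed, 4 each of neuronal rescue, raga-1(ok386) mutant and wild type. Per the labels and the study's methods, libraries were stranded mRNA, and transcript abundance was estimated with Salmon and collapsed to genes with tximport; versions are not given in the sources used here. As deposited, the values are each gene's estimated count from Salmon (expected counts, Ensembl 94), and a normalized signal, the rounded counts divided by DESeq2 size factors, used only with limma. Every column of values had a sample.

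Estimated counts were rounded, filtered with filterByExpr, scaled by TMM and fitted over all 12 samples with edgeR 4.0.16 (R 4.3.3; glmQLFit, glmQLFTest; common dispersion 0.0299), with Benjamini-Hochberg adjustment over 15728 genes and a threshold of 0.01. DESeq2 1.42.0 and limma 3.58.1 (log2 of the normalized signal, pseudocount 1) were alternatives. Log2 CPM used a prior count of 2. Scripts were tested on simulated data. The members and the gene lists were chosen with earlier results of these data known. Genes named by rule were the members, other vit genes, raga-1 and the 8 genes most like the summed vitellogenins. In each list, up to 3 called genes with the smallest p in each comparison with wild type were also named. So was any list gene called in rescue against mutant. After their values were seen, col-19, bli-1, bli-2, gld-1, ges-1, asp-1, him-3 and spe-10 in rescue were named. Replicate numbers of mutant and rescue mark a shared collection day by the labels, those of wild type do not. The correlations of same-numbered deviations in rescue and mutant were -0.02, 0.15, -0.14 and 0.01. Promoter and protein sequences were not analysed here. Replicates came from independent egg lays. The floor covers counting error only.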

Additional observations from a re-analysis of the deposited data

Results flagged for a closer look

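The summed CPM of the 7 sperm genes was lowest in rescue replicate 2, at 104.6 CPM, and this sample lay apart from the other 3 rescue samples, with a gap of 0.858 of the group's range on the log2 scale, above Dixon's critical value for 4 samples. About 1 in 20 groups of 4 pass this by chance, and this was the 1 such value in 90 groups examined. No vitellogenin and no rme-2 value stood apart in this way.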

How the results depend on the processing

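No member passed the threshold of 0.01 under any alternative, and the lowest adjusted p over all of them was 0.0653, for rme-2 in mutant against wild type. Small log2 fold changes changed sign. With collection day as a block, that of vit-3 in rescue against wild type was 0.074. Leaving out 1 sample at a time gave, in mutant against wild type, 0.10 to 0.68 for vit-2, -0.52 to -0.02 for vit-3, -0.74 to -0.09 for vit-4, 0.36 to 0.94 for vit-5, 0.32 to 0.87 for vit-6 and 0.21 to 0.60 for rme-2. It gave, in rescue against wild type, -0.12 to 0.45 for vit-2, -0.33 to 0.20 for vit-3, -0.57 to 0.094 for vit-4 and -0.014 to 0.38 for rme-2. In rescue against mutant it gave -0.023 to 0.43 for vit-3, -0.19 to 0.54 for vit-4 and -0.48 to 0.05 for vit-5. The replicate block left 0 members called. Of the 8 genes most like the summed vitellogenins, 4 were also among the top 8 by Spearman rho and 4 after subtracting group means. Counts over all genes moved: in rescue against mutant 60 genes were called, but 34 with the replicate block, 7 with the day block, 94 with library size alone, 324 with DESeq2, 556 with only these 2 groups in the fit and 19 to 148 without 1 sample. In mutant against wild type 2418 were called, but 979 with the day block, 1387 with only 2 groups and 1434 without mutant replicate 2; in rescue against wild type 3721, but 1862 with the day block. At a threshold of 0.05 the counts were 4578, 6095 and 264. With library size alone, 960 genes were called higher and 956 lower in mutant against wild type (1001 and 1417 with TMM), and 2142 and 1146 in rescue (1602 and 2119 with TMM), with a median log2 fold change of 0.14 instead of 0.04. The TMM factors averaged 1.039 in rescue and 0.9708 in wild type, and library size alone leaves this difference in place. Why the factors differed was not tested. The 4 samples a group and the wide wild type spread limit what could be called.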
